A study of Mus musculus with 47 samples.

Results

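Microglia are the resident macrophages of the brain parenchyma. They arise from yolk sac progenitors, settle in the brain early in embryonic life, and depend on signalling through the receptor Csf1r and on transforming growth factor beta. They are told from other macrophages by a set of genes that includes purinergic receptors, which sense extracellular nucleotides, and by surface proteins of sentinel function, although several of these genes are also used by macrophages of other tissues.

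The 9 genes followed here, P2ry12, P2ry13, Tmem119, Fcrls, Gpr34, Trem2, Ly86, Ctss and Mpeg1, were taken by their symbols from a table of read counts that holds 20456 genes. All 9 were found and all 9 passed the filter on low counts, which left 16892 genes tested. P2ry12, P2ry13 and Gpr34 encode receptors of the P2Y type or close relatives of them, Tmem119, Fcrls and Trem2 encode membrane proteins, Ly86 (MD-1) encodes the partner of the surface receptor Cd180, Ctss encodes the lysosomal protease cathepsin S, and Mpeg1 encodes perforin-2, a pore-forming protein of phagocytes.

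RNA was sequenced from whole liver, lung and brain of C57BL/6 mouse embryos at E18.5, shortly before birth, in 47 libraries of 12 groups. The mutants were homozygous for a germline knock-in allele of Daxx, a histone chaperone: S226A replaces a serine through which Daxx binds the histone variant H3.3, and Y130A replaces a tyrosine through which it binds Atrx. Both alleles were made with CRISPR/Cas9 in C57BL/6N zygotes and the founders were crossed back to C57BL/6J, and silent changes were introduced beside each substitution. Each mutant was compared with wild-type embryos of its own litters, 4 litters for each allele, with 4 libraries per group and 3 for wild-type lung in the Y130A set. In 1 S226A litter the lung and the other wild-type tissues were taken from different embryos. Mutant and wild-type embryos therefore shared litters, and the knock-in was present in every tissue and not in microglia alone. DNA of C57BL/6N and C57BL/6J origin may still differ between littermates, which was not tested. Gene counts cannot show a substitution of single bases, so the genotypes rest on the labels.

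Each library held between 15722147 and 26190403 counted reads in the S226A litters and between 36351738 and 54885020 in the Y130A litters. Levels are given as CPM, the reads of a gene per 1000000 counted reads, after TMM scaling, a correction of library size for composition. The tissue labels were borne out by defining genes: 6 neuron genes summed to between 5249 and 6535 CPM in the 16 brains, 5 lung epithelium genes to at least 6334 CPM in the lungs, and 5 hepatocyte genes to at least 138411 CPM in the livers. Hepatocyte genes reached 167.1 CPM in 1 Y130A brain, and 7 squamous epithelium genes, keratins among them, reached 49.4 CPM in 1 wild-type brain of the Y130A litters. Squamous epithelium genes were also lower in S226A liver, as given below. The part of such admixture in the results below was not tested.

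On GRCm38, the build of the authors' alignment, 4 of the 9 genes lie on chromosome 3. P2ry12 (ENSMUSG00000036353.13, chr3:59216272-59262871, minus strand) and P2ry13 (ENSMUSG00000036362.2, chr3:59207892-59210882, minus strand) are neighbours, and both lie inside Med12l, which is read from the plus strand. The strand setting of the counting is not given in the sources used here, so the counts of these genes may include or lose reads where they overlap with Med12l, which was not tested. Fcrls is ENSMUSG00000015852.13 (chr3:87250758-87263738, minus strand) and Ctss is ENSMUSG00000038642.10 (chr3:95526786-95556403, plus strand). Tmem119 is ENSMUSG00000054675.5 (chr5:113793729-113800516, minus strand), Gpr34 is ENSMUSG00000040229.11 (chrX:13632089-13640858, plus strand) and Trem2 is ENSMUSG00000023992.14 (chr17:48346401-48354147, plus strand). Ly86 is ENSMUSG00000021423.6 (chr13:37345208-37419036, plus strand) and Mpeg1 is ENSMUSG00000046805.9 (chr19:12460779-12465283, plus strand). All 9 are annotated as protein coding, and the counts cover their exons.

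Promoter sequence is shown for P2ry13, Ctss and Mpeg1, which are among the genes that fell in S226A brain (below) and whose 250 bases before the start hold no annotated exon. The windows come from RefSeq on GRCm38.p6 at chr3:59210883-59211132 (minus strand), chr3:95526536-95526785 (plus strand) and chr19:12460520-12460769 (plus strand), and are written 5′ to 3′ on the strand of the gene. Capitals mark the letters GAGGAA, the core of sites for PU.1, the factor encoded by Spi1 that macrophages require.
P2ry13: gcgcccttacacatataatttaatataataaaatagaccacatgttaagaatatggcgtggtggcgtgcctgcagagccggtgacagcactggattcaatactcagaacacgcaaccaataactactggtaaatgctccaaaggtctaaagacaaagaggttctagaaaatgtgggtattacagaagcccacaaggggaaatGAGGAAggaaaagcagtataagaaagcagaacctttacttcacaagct
Ctss: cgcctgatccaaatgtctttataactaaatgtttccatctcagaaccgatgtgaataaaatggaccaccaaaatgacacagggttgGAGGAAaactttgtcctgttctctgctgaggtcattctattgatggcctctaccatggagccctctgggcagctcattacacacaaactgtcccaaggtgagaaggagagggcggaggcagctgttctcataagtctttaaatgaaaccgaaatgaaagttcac
Mpeg1: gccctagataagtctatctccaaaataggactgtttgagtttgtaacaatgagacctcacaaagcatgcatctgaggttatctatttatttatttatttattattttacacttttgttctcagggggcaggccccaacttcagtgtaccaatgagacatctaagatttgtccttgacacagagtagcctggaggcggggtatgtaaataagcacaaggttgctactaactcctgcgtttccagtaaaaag

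RefSeq windows were matched for 7 of the 9 genes, Tmem119 and Gpr34 being without one. On either strand, GAGGAA stood in 4 of the 7 windows, at -48 to -43 in P2ry13, -164 to -159 in Ctss and -144 to -139 in Fcrls on the strand of the gene and at -40 to -35 in Trem2 on the other strand, where position -1 is the base before the start. It is a common run of letters that was found in 23.3% of the same windows of 32841 promoters. The composite of an ETS and an IRF site, GGAA and GAAA with 2 bases of any kind between them, stood in none of the 7 windows and in 2.30% of all, and TATAAA stood in 2 of 7, those of Ctss and Fcrls, and in 12.4% of all. These are matches of letters and not sites that were shown to be bound.

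In wild-type brain, the 9 genes together made up between 37.0 and 47.4 CPM, so that all of them were low in whole tissue. Per kilobase of exon, Ctss stood highest at 6.78 ± 1.14 CPM per kb (SD, n = 8 wild-type brains) and Fcrls followed at 4.89 ± 0.674 CPM per kb. Mpeg1 (1.56 ± 0.178 CPM per kb), P2ry12 (1.54 ± 0.241 CPM per kb) and Tmem119 (1.30 ± 0.239 CPM per kb) came next and did not differ beyond their spread. Ly86 stood at 0.825 ± 0.161, P2ry13 at 0.666 ± 0.117, Gpr34 at 0.628 ± 0.230 and Trem2 at 0.422 ± 0.102 CPM per kb, each neighbour in this order within the spread of the next. The order of the last genes depended on the length used: with the length of the principal transcript in place of all exons, Ly86 stood at 2.64 ± 0.516 and Trem2 at 1.92 ± 0.464 CPM per kb, above P2ry12 at 1.67 ± 0.262 CPM per kb.

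Only part of the 9 genes had their highest level in brain (as seen in the plot of levels in the wild-type tissues). With edgeR's quasi-likelihood test, a gene was called when its adjusted p (Benjamini-Hochberg over the 16892 genes) was below 0.01, its log2 fold change lay beyond 1 in either direction and the standard error of that change was below 1. Between wild-type brain and wild-type lung, 4 of the 9 genes were called lower in brain, where 25.7% of all genes were called lower, and none was called higher, as 23.1% of all genes were. With an adjusted p below 0.05 as the only criterion 7 of the 9 passed, and 84.0% of all genes. Those called lower were Tmem119 (log2 difference of brain from lung -3.49, SE 0.16), Mpeg1 (-3.16, SE 0.11), Ctss (-2.40, SE 0.13) and Ly86 (-1.43, SE 0.15). P2ry12 was higher in brain by 0.57 on the log2 scale (SE 0.22, edgeR adjusted p = 0.018), which did not pass the call, and Fcrls did not differ at this threshold (log2 difference 0.29, 95% interval -0.18 to 0.75, adjusted p = 0.248).

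**Figure D1:**
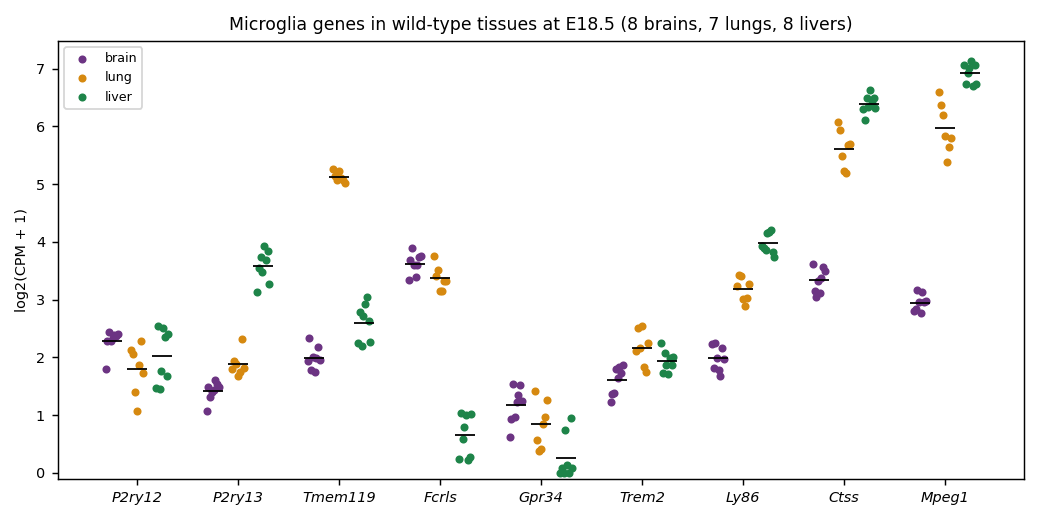
Level of each of the 9 genes as log2(CPM + 1) in 8 wild-type brains, 7 wild-type lungs and 8 wild-type livers, 1 point per library with a line at the mean. Fcrls stands higher in brain and lung than in liver, Tmem119 is highest in lung, and P2ry13, Ly86, Ctss and Mpeg1 are highest in liver.

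Against wild-type liver, Fcrls (log2 difference of brain from liver 4.19, SE 0.28) and Gpr34 (2.49, SE 0.68) were called higher in brain, where 29.2% of all genes were called higher. P2ry13 (-2.72, SE 0.16), Ly86 (-2.31, SE 0.14), Ctss (-3.17, SE 0.13) and Mpeg1 (-4.15, SE 0.11) were called lower in brain, where 26.9% of all genes were called lower. P2ry13, a receptor for ADP, reached 11.1 ± 2.23 CPM in wild-type liver (SD, n = 8) against 1.68 ± 0.296 CPM in wild-type brain. Since cells other than microglia use some of these genes, the results are given tissue by tissue.

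In S226A brain all 9 genes had a log2 fold change below 0, and 6 of the 9 were called lower than in wild-type littermates: Fcrls, P2ry12, Ly86, Ctss, P2ry13 and Mpeg1. Over all genes tested, 0.0947% were called lower in this comparison. Tmem119, Gpr34 and Trem2 were not called. All 9 genes had an unadjusted p below 0.05 in edgeR, and the share of all genes below it was not computed, here or below. The median of the 9 log2 fold changes was -1.48, beside 0.003 over all genes tested. The summed level of the 9 genes was 13.3 ± 2.70 CPM in the 4 S226A brains and 41.3 ± 2.59 CPM in the 4 wild-type brains of their litters, which is 32.2% of the wild-type level. In whole tissue, fewer microglia and less RNA of these genes per microglial cell cannot be told apart.

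P2ry12, the ADP receptor through which microglial processes move toward injury, gave 2.48, 3.87, 4.4002 and 3.85 CPM in the wild-type brains (59, 93, 125 and 104 reads). In the S226A brains it gave 0.805, 0.546, 1.00 and 0.909 CPM (23, 14, 24 and 22 reads), all below the lowest wild-type brain. The log2 fold change was -2.16 (SE 0.33, 95% interval -2.83 to -1.49, edgeR adjusted p = 0.000123).

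P2ry13, which lies beside P2ry12 and also responds to ADP, gave 1.09, 1.79, 1.48 and 1.63 CPM in the wild-type brains and 0.455, 0.663, 0.711 and 0.496 CPM in the S226A brains (12 to 17 reads). The groups did not overlap, and the log2 fold change was -1.37 (SE 0.25, 95% interval -1.88 to -0.85, edgeR adjusted p = 0.0028). This call was the least firm of the 6, since the edgeR adjusted p was 0.0178 with the litter as a replicate block and 0.0983 with the compared libraries fitted alone, and the call was also lost without wild-type brain 2, 3 or 4 or S226A brain 1 or 4. P2ry1, P2ry6 and P2ry14, other receptors of the family, were measured in the same brains. P2ry1 stood at 11.2 ± 0.987 CPM in S226A brain and 11.3 ± 1.30 CPM in wild-type brain (SD, n = 4 each), and none of the 8 further genes of the P2Y family list was called.

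Gpr34, a receptor for lysophosphatidylserine, gave few reads in brain, with 0.547, 0.915, 1.90 and 0.963 CPM in the wild-type brains (13, 22, 54 and 26 reads). The S226A brains gave 0.280, 0.507, 0.167 and 0 CPM (8, 13, 4 and 0 reads). All 4 lay below the wild-type brains, but the gene was not called (log2 fold change -2.15, SE 0.93, 95% interval -4.04 to -0.27, edgeR adjusted p = 1).

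Tmem119, a membrane protein widely used to stain microglia, was the single gene of the 9 whose groups overlapped in brain. Wild-type brains gave 2.82, 4.04, 2.43 and 3.04 CPM and S226A brains 2.55, 1.91, 1.17 and 1.61 CPM, so that the highest S226A brain lay above the lowest wild-type brain. It was not called (log2 fold change -0.75, SE 0.25, 95% interval -1.25 to -0.25, edgeR adjusted p = 0.729).

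Fcrls, an Fc receptor-like protein found in microglia of the mouse, had the most negative log2 fold change. It gave 9.08, 11.8, 13.8 and 11.1 CPM in the wild-type brains and 2.80, 2.77, 2.01 and 1.73 CPM in the S226A brains. No S226A brain reached 3 CPM and no wild-type brain was under 9 CPM, and the log2 fold change was -2.29 (SE 0.34, 95% interval -2.98 to -1.61, edgeR adjusted p = 7.27e-05).

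Trem2, a receptor for lipids that signals through Tyrobp, gave 1.35, 1.58, 1.62 and 2.48 CPM in the wild-type brains and 0.910, 0.937, 0.711 and 0.909 CPM in the S226A brains. The groups did not overlap, yet the call was not reached (log2 fold change -1.02, SE 0.32, 95% interval -1.67 to -0.37, edgeR adjusted p = 0.58). Of its 5 signalling partners in the list, Tyrobp itself was called lower (log2 fold change -1.01, edgeR adjusted p = 0.00747), beside 0.0947% of all genes. Apoe, a lipoprotein that Trem2 binds and that astrocytes also make, stood at 292.1 ± 45.9 CPM in S226A brain against 300.4 ± 35.6 CPM in wild-type brain (SD, n = 4 each).

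Ly86 gave 3.70, 2.54, 3.73 and 2.96 CPM in the wild-type brains and 0.420, 1.33, 0.627 and 0.661 CPM in the S226A brains (12 to 34 reads). It had the lowest adjusted p of the 9, with a log2 fold change of -2.09 (SE 0.24, 95% interval -2.57 to -1.61, edgeR adjusted p = 4.04e-07). Its partner Cd180 was scarce, with 6, 6, 13 and 20 reads in the wild-type brains and 2, 7, 3 and 7 reads in the S226A brains, and was not called.

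Ctss gave 11.3, 7.86, 7.22 and 8.96 CPM in the wild-type brains and 3.01, 4.14, 3.39 and 2.07 CPM in the S226A brains. Every S226A brain lay below the lowest wild-type brain, with a log2 fold change of -1.48 (SE 0.20, 95% interval -1.88 to -1.08, edgeR adjusted p = 1.17e-05). Other cathepsins and lysosomal genes, which most brain cells use, were not called in any of the 10 cases, and their log2 fold changes lay between -0.23 and 0.02. Ctsb, for one, stood at 150.025 ± 8.18 CPM in S226A brain and 160.2 ± 8.46 CPM in wild-type brain (SD, n = 4 each).

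Mpeg1 gave 6.01, 6.16, 7.96 and 6.78 CPM in the wild-type brains and 2.80, 3.75, 2.68 and 1.73 CPM in the S226A brains. These groups did not overlap either, and the log2 fold change was -1.29 (SE 0.18, 95% interval -1.66 to -0.93, edgeR adjusted p = 3.2e-05).

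**Figure D2:**
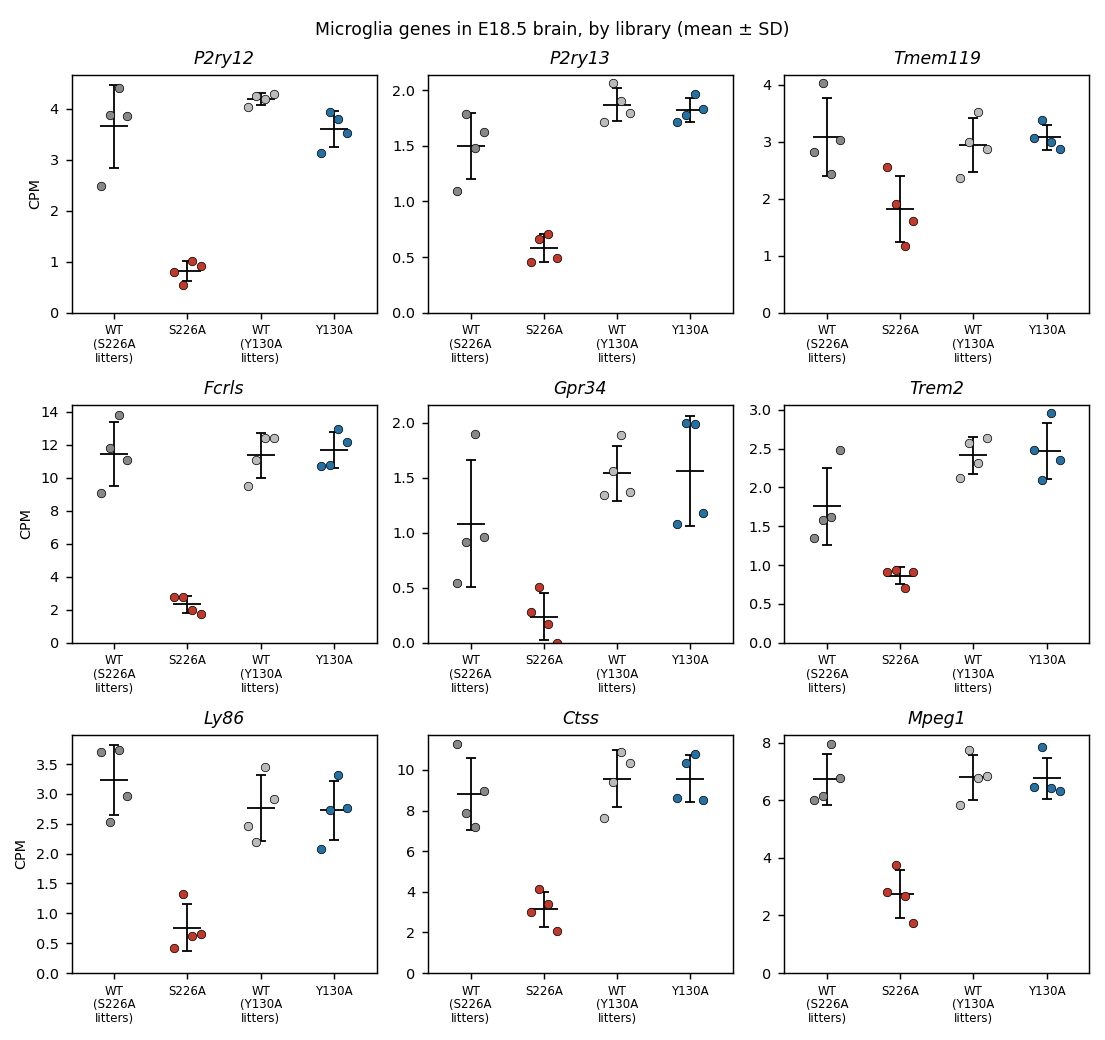
CPM of each of the 9 genes in the 16 brain libraries, 1 point per library, with the mean and the SD of each group of 4. The S226A brains lie below both sets of wild-type brains in every panel except that of Tmem119, where they overlap, and the Y130A brains overlap with their wild-type littermates in every panel except that of P2ry12, where all 4 lie below.

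For 8 of the 9 genes every S226A brain lay below every wild-type brain, an arrangement that 1.24% of all genes tested showed. An exact two-sided permutation test on log2(CPM + 1) gave p = 0.0286 for each of the 8, the smallest that 4 against 4 libraries allow, and p = 0.0571 for Tmem119. Over the 54 such tests of the 9 genes in the 6 comparisons the lowest Benjamini-Hochberg adjusted value was 0.0908, so that none passed 0.05. Within litters, the mutant was lower in 36 of 36 pairs of gene and litter. The smallest of these differences was that of Tmem119 in 1 litter, at -0.10 on the log2(CPM + 1) scale, and the widest was that of Fcrls in another, at -2.30. Such pairs, here and below, share 9 genes and at most 4 litters, so they do not count as independent replicates.

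In Y130A brain none of the 9 genes was called, by edgeR or by DESeq2, and none had an unadjusted p below 0.05 in edgeR. Of all genes tested 0.0% were called. The log2 fold changes lay between -0.22 for P2ry12 (95% interval -0.82 to 0.38) and 0.07 for Tmem119 (95% interval -0.37 to 0.51). P2ry12 gave 4.03, 4.24, 4.19 and 4.28 CPM in the wild-type brains of the Y130A litters and 3.13, 3.93, 3.79 and 3.52 CPM in the Y130A brains. These groups did not overlap (exact permutation p = 0.0286), as was the case, in this direction, for 2.09% of all genes, while the other 8 genes overlapped. Fcrls gave 9.51, 11.1, 12.4 and 12.4 CPM in the wild-type brains and 10.7, 10.8, 12.99 and 12.2 CPM in the Y130A brains. Ly86 gave 2.46, 2.20, 3.46 and 2.91 CPM against 2.09, 2.73, 3.31 and 2.77 CPM. The summed level was 43.3 ± 3.47 CPM in Y130A brain and 43.5 ± 4.51 CPM in wild-type brain, 99.5% of the wild-type level. The mutant was lower in 21 of 36 pairs of gene and litter.

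The difference between the effects of the alleles was itself tested, as an interaction without the limit on the standard error. Ly86 (difference of the log2 fold changes, S226A minus Y130A, -2.08, edgeR adjusted p = 0.000286), Ctss (-1.48, adjusted p = 0.0044) and Mpeg1 (-1.28, adjusted p = 0.00683) were called in brain, where 0.0474% of all genes were called with a lower effect in S226A. Fcrls had the most negative difference, -2.33, with an edgeR adjusted p of 0.0142, and was not called. P2ry12 (-1.94, edgeR adjusted p = 0.0828) and P2ry13 (-1.33, edgeR adjusted p = 0.194) were not called, nor were Tmem119, Gpr34 and Trem2. DESeq2 called 5 of the 9, beside 0.0652% of all genes it called in that direction. In edgeR 1 was called when wild-type brain 4 of the S226A litters, S226A brain 1, 3 or 4, wild-type brain 1 of the Y130A litters or Y130A brain 2 or 3 was left out.

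The 2 sets of litters differed in sequencing depth, so their wild-type brains were compared. None of the 9 genes was called between them, by edgeR or DESeq2, and none had an unadjusted p below 0.05, while 0.101% of all genes were called. The log2 differences lay between -0.51 for Gpr34 and 0.23 for Ly86. Against the wild-type brains of both sets together, a comparison chosen after seeing the data, 6 of the 9 genes were called lower in S226A brain, with 0.154% of all genes. The 6 were the same genes.

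Genes that accompany microglia were taken from lists of general knowledge (the plot of other macrophage genes shows them). The lists were chosen with earlier results of these data known, so they are not independent support. Among 10 other homeostatic microglia genes, all had a log2 fold change below 0 in S226A brain, with a median of -0.59. Of these, 1 was called lower, Cx3cr1, the receptor for fractalkine, beside 0.0947% of all genes. Cx3cr1 gave 10.7, 13.6, 12.04 and 13.8 CPM in the wild-type brains and 2.59, 2.85, 3.09 and 2.31 CPM in the S226A brains (log2 fold change -2.21, SE 0.20, edgeR adjusted p = 1.25e-09). Siglech, a lectin of microglia, gave 20, 29, 41 and 38 reads in the wild-type brains and 1, 3, 0 and 0 reads in the S226A brains (edgeR adjusted p = 0.0103). Sall1, a transcription factor that microglia share with other cells of the embryonic brain, had a log2 fold change of -0.14. Rgs10 (-0.05), Sparc (-0.06) and Olfml3 (-0.16) also lay near 0. The sum of the 10 genes was between 228.3 and 268.3 CPM in S226A brain. It was between 257.9 and 297.0 CPM in the wild-type brains of the same litters, and the groups overlapped. DESeq2 called 3 of these 10, beside 0.136% of all genes it called lower.

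Of 16 genes shared by macrophages in general, all had a log2 fold change below 0. Of these, 2 were called lower, Csf1r and Tyrobp, beside 0.0947% of all genes. Csf1r, the receptor for colony stimulating factor 1 and interleukin 34, gave 24.6, 25.6, 26.1 and 26.1 CPM in the wild-type brains and 10.7, 8.55, 8.15 and 8.09 CPM in the S226A brains (log2 fold change -1.52, SE 0.08, edgeR adjusted p = 1.2e-17). C1qb, a chain of complement C1q, had a log2 fold change of -0.97 (edgeR adjusted p = 0.000787), short of the limit on the fold. The sum of these 16 genes was between 49.5 and 59.3 CPM in S226A brain and between 95.4 and 102.6 CPM in wild-type brain, and the groups did not overlap. That sum was a larger share of the wild-type level than the sum of the 9 microglia genes was, a difference that was not tested.

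**Figure D3:**
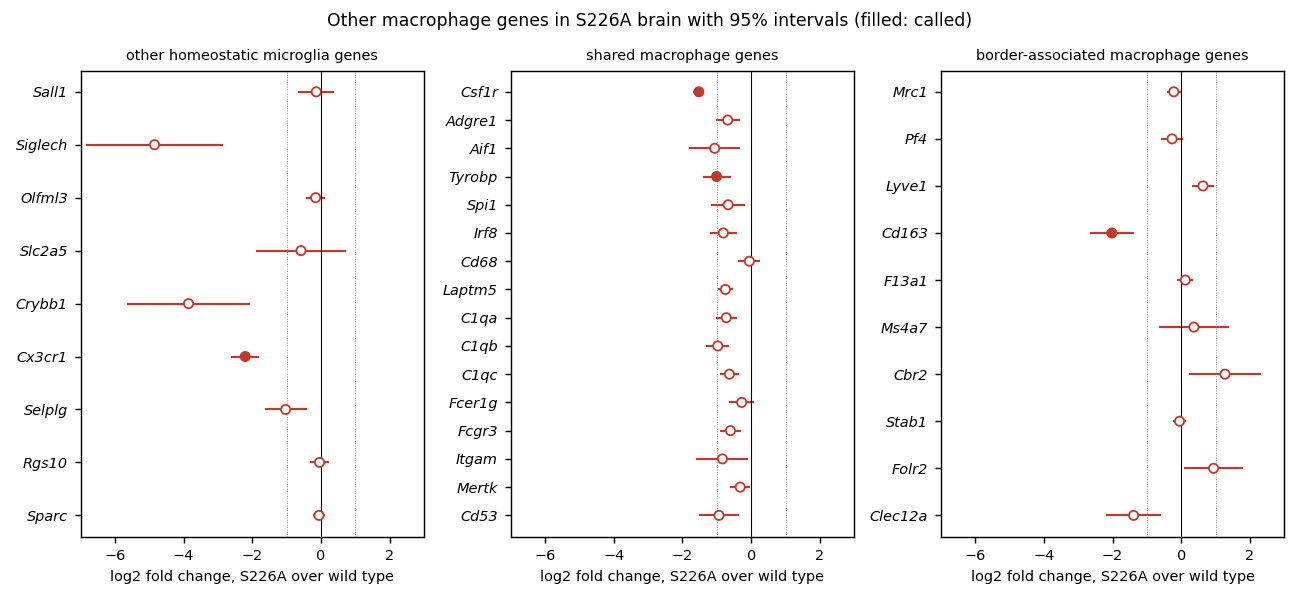
Log2 fold change of S226A brain over wild-type brain, with 95% intervals, for 9 of the 10 other homeostatic microglia genes, 16 shared macrophage genes and 10 border-associated macrophage genes, filled where called. In the first 2 panels every estimate lies below 0, and in the panel of border-associated macrophages Cd163 is the gene called and the estimates lie on both sides of 0.

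Border-associated macrophages live in the meninges, around vessels and in the choroid plexus, and share yolk sac origin with microglia. Among 10 genes of these cells, 5 had a log2 fold change below 0 and 5 above, and 1 was called lower, beside 0.0947% of all genes. Cd163, a scavenger receptor, was the one called, with 5.25, 4.12, 3.34 and 3.89 CPM in the wild-type brains and 1.29, 0.976, 0.836 and 0.950 CPM in the S226A brains (log2 fold change -2.02, edgeR adjusted p = 0.000184). Mrc1, the mannose receptor, stood at 33.5 ± 3.95 CPM in S226A brain against 39.0 ± 2.34 CPM in wild-type brain, and F13a1 at 30.4 ± 3.63 against 28.1 ± 2.46 CPM (SD, n = 4 each). The sum of the 10 genes was between 114.5 and 141.0 CPM in S226A brain and between 112.8 and 137.9 CPM in wild-type brain, overlapping almost throughout.

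Unlike Csf1r, none of the 12 genes of the list of ligands, their activators and receptors for transforming growth factor beta that serve microglia was called, by edgeR or DESeq2. Csf1 stood at 9.74 ± 1.69 CPM in S226A brain against 11.6 ± 1.57 CPM, Il34 at 2.41 ± 0.572 against 2.88 ± 0.662 CPM and Tgfb1 at 1.35 ± 0.137 against 1.74 ± 0.514 CPM (SD, n = 4 each). No gene of the lists for neurons, astrocytes, oligodendrocytes, endothelium or choroid plexus was called either, and the neuron genes had log2 fold changes between -0.05 and 0.01.

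Lists of other blood cells lay in different directions in the same libraries. All 10 neutrophil genes had a log2 fold change above 0 in S226A brain, and their sum was between 6.16 and 14.7 CPM there, above the 1.80 to 4.71 CPM of the wild-type brains. None was called by edgeR, with S100a8 at a log2 fold change of 2.37 (edgeR adjusted p = 0.0155) and S100a9 at 1.64 (edgeR adjusted p = 0.0244), while DESeq2 called 2, beside 0.0533% of all genes it called higher. No gene of the erythroid, B lineage, T and NK cell or monocyte lists was called by edgeR. All 6 erythroid genes (median log2 fold change -0.21), 5 of 7 B lineage genes (median -1.10) and 4 of 6 T and NK cell genes (median -0.67) had a log2 fold change below 0, and 6 of 7 monocyte genes had one above 0 (median 0.10, from -2.47 to 2.29). Marco, a scavenger receptor of alveolar and some liver macrophages, was at 0 reads in the 4 wild-type brains and at 26, 38, 32 and 9 reads in the S226A brains, and was called higher, as were 0.0296% of all genes. The other defining genes of liver and alveolar macrophages were not called. The part of these cells in the values of the 9 genes was not tested.

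Over the 16 brain libraries, the 9 genes followed each other. The Pearson r of log2(CPM + 1) of each gene with the mean of the other 8 ran from 0.779 for Tmem119 to 0.985 for Fcrls. All points come from the same 16 libraries, among them the 4 S226A brains that are low in nearly all of these genes. Among 13755 further genes with a mean of at least 1 CPM in brain, those most like the mean of the 9 included Cx3cr1 (r = 0.977), Csf1r (r = 0.974), Il10ra, a receptor chain for interleukin 10 (r = 0.964), and Nckap1l, an actin regulator of blood cells (r = 0.944). With the mean of each group taken out, the r of these 4 with the mean of the 9 was 0.714, 0.348, 0.451 and 0.300.

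In S226A lung, 3 of the 9 genes were called lower, Fcrls, Ctss and Mpeg1, where 0.154% of all genes were called lower, and 8 of the 9 log2 fold changes lay below 0. The summed level was 110.7 ± 9.98 CPM in S226A lung and 191.6 ± 34.3 CPM in the wild-type lungs of the same litters, or 57.8%. Fcrls gave 12.6, 9.62, 10.5 and 7.89 CPM in the wild-type lungs and 2.85, 4.57, 2.56 and 1.98 CPM in the S226A lungs (log2 fold change -1.76, SE 0.34, edgeR adjusted p = 0.00165). Ctss gave 66.3, 60.3, 43.9 and 36.3 CPM against 28.9, 26.6, 19.8 and 19.2 CPM (log2 fold change -1.13, SE 0.17, edgeR adjusted p = 3.74e-05). Mpeg1 gave 95.2, 81.8, 72.0 and 56.0 CPM against 40.8, 33.0, 34.0 and 34.0 CPM (log2 fold change -1.10, SE 0.14, edgeR adjusted p = 3.53e-06). The groups did not overlap for these 3 genes, with the wild-type lungs spread more widely than the mutant ones.

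Trem2 gave 3.33, 4.67, 3.51 and 4.82 CPM in the wild-type lungs and 2.27, 2.05, 2.19 and 1.28 CPM in the S226A lungs, without overlap, and missed the call (log2 fold change -1.07, SE 0.31, edgeR adjusted p = 0.0564). Without overlap below the wild-type lungs lay 4 of the 9 genes, as did 1.72% of all genes. Ly86, which had fallen in brain, gave 8.39, 9.75, 9.67 and 7.07 CPM in the wild-type lungs and 7.13, 13.7, 7.68 and 9.25 CPM in the S226A lungs, with a log2 fold change of 0.11 (95% interval -0.28 to 0.50). The effect of S226A on Ly86 differed between brain and lung by -2.20 on the log2 scale (SE 0.31, edgeR adjusted p = 0.000199), beside 0.0118% of all genes called in that direction. With the compared libraries fitted alone this difference was -2.18 and was not called (edgeR adjusted p = 0.0616).

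Tmem119, at 37.1, 34.2, 32.5 and 36.5 CPM in the wild-type lungs and 36.1, 30.4, 32.2 and 33.8 CPM in the S226A lungs, was the most abundant of the membrane proteins there and had a log2 fold change of -0.08 (95% interval -0.49 to 0.33). P2ry12 gave 3.38, 3.19, 1.65 and 1.10 CPM against 1.69, 1.68, 1.58 and 2.02 CPM, a log2 fold change of -0.42 (95% interval -1.07 to 0.22). P2ry13 had a log2 fold change of -0.50 and Gpr34 of -0.44, and neither was called. Across the 9 genes the mutant was lower in 31 of 36 pairs of gene and litter.

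The wild-type lungs of the 2 sets of litters were less alike than their brains, with 1.62% of all genes called between them. Mpeg1 was higher in the wild-type lungs of the S226A litters, by 0.67 on the log2 scale (SE 0.15, edgeR adjusted p = 0.00142), and stood at 40.5, 48.8 and 54.5 CPM in those of the Y130A litters, where the highest S226A lung, at 40.8 CPM, was above the lowest. Against both wild-type sets together, a comparison chosen after seeing the data, Fcrls (log2 fold change -1.65) and Ctss (-1.04) were called and Mpeg1 was not (-0.77, edgeR adjusted p = 0.000243), beside 0.071% of all genes called lower. Without wild-type lung 1 of the S226A litters, Ctss (-0.99) and Mpeg1 (-0.98) also stayed short of the limit on the fold. In a fit of the 8 lungs compared alone, none of the 3 passed an adjusted p of 0.01, and their edgeR adjusted p was 0.0199 for Fcrls, 0.0635 for Ctss and 0.0132 for Mpeg1.

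**Figure D4:**
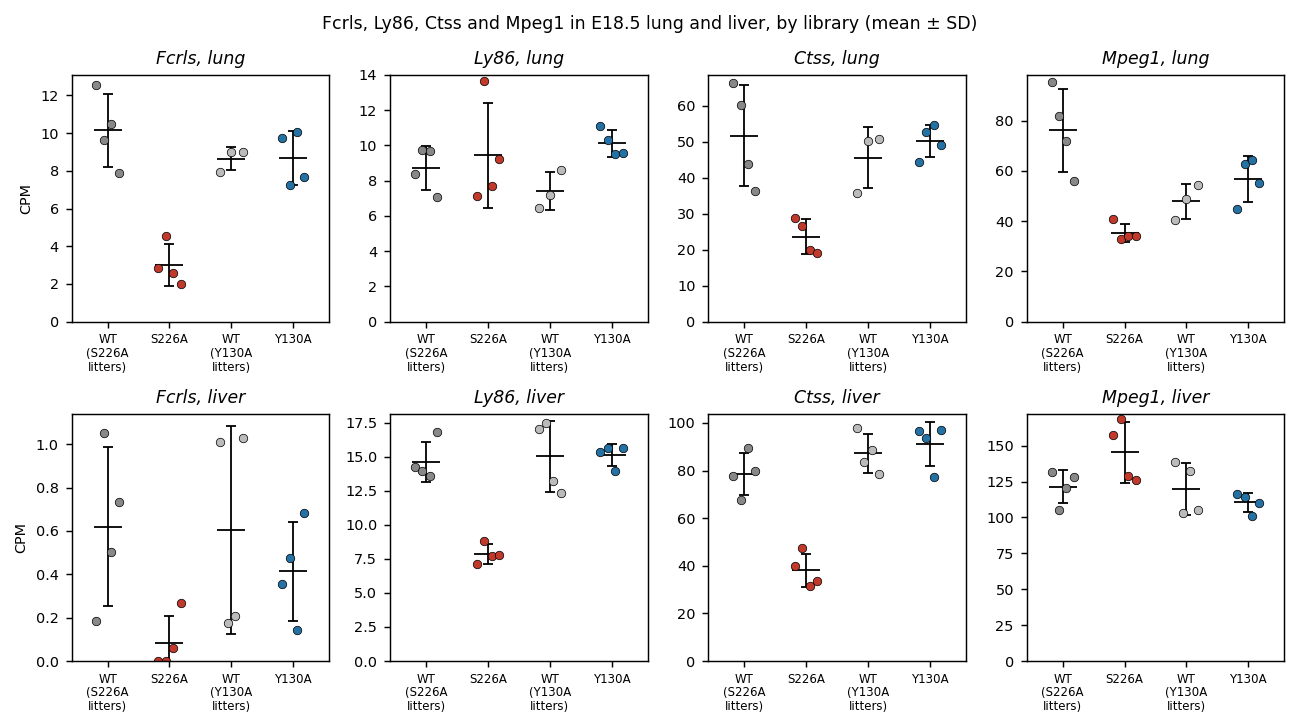
CPM of Fcrls, Ly86, Ctss and Mpeg1 in the lung libraries (upper row) and liver libraries (lower row), 1 point per library, with the mean and the SD of each group. Fcrls and Ctss are lower in S226A in both tissues, Ly86 is lower in liver and not in lung, and Mpeg1 is lower in lung and not in liver.

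In Y130A lung none of the 9 genes was called by edgeR or DESeq2, as 0.0% of all genes were, and 1 had an unadjusted p below 0.05. This was Ly86, with 6.46, 7.17 and 8.62 CPM in the 3 wild-type lungs and 11.1, 10.3, 9.49 and 9.55 CPM in the Y130A lungs (log2 fold change 0.45, 95% interval 0.03 to 0.87). All 4 Y130A lungs lay above the wild-type lungs (exact permutation p = 0.0286, the smallest that 4 against 3 allow), as they did for 1.61% of all genes. The mutant was lower in 9 of 27 pairs of gene and litter, and Trem2, Ly86, Ctss and Mpeg1 were higher in the mutant in 3 of 3 pairs each. The summed level was 166.3 ± 14.7 CPM in Y130A lung and 152.1 ± 17.2 CPM in wild-type lung, or 109.3%. The effects of the alleles in lung differed for Ctss (S226A minus Y130A -1.27, edgeR adjusted p = 0.00779) and Mpeg1 (-1.35, edgeR adjusted p = 0.000314), beside 0.0533% of all genes called in that direction. With the compared libraries fitted alone neither was called (edgeR adjusted p = 0.127 for Ctss and 0.0245 for Mpeg1). In lung 1 of the 2 was called when wild-type lung 1 or 2 of the S226A litters, S226A lung 3 or 4, any wild-type lung of the Y130A set or Y130A lung 2, 3 or 4 was left out. In S226A lung, where 0.154% of all genes were called lower, 1 of the 10 other homeostatic genes was called lower, Cx3cr1 (log2 fold change -1.25). Of the 16 shared macrophage genes 2 were called lower, Csf1r (-1.13) and Laptm5 (-1.02), and 1 was called higher, Itgam (1.52), an integrin chain that neutrophils also carry. Of the 10 border-associated macrophage genes 1 was called lower, Cd163 (-1.37), while 4 of 10 neutrophil genes were called higher, beside 0.148% of all genes.

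In S226A liver, 2 of the 9 genes were called lower, Fcrls and Ctss, where 0.847% of all genes were called lower. Ctss gave 77.6, 67.8, 89.3 and 79.7 CPM in the wild-type livers and 39.7, 47.3, 31.6 and 33.6 CPM in the S226A livers (log2 fold change -1.04, SE 0.17, edgeR adjusted p = 1.69e-05). Fcrls was close to the limit of detection in liver, with 3, 16, 7 and 12 reads in the wild-type livers and 0, 0, 1 and 4 reads in the S226A livers (log2 fold change -2.99, SE 0.74, edgeR adjusted p = 0.00501), and the groups overlapped. Ctss lay at the limit on the fold, so that it was short of it without wild-type liver 3 (-0.98) or without S226A liver 3 (-0.97) or 4 (-0.99). Fcrls was no longer called when wild-type liver 2 or 4 or any of the S226A livers was left out. With an adjusted p below 0.05 as the only criterion 4 of the 9 genes passed, and 11.7% of all genes.

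Ly86 gave 14.2, 13.9, 13.6 and 16.8 CPM in the wild-type livers and 7.11, 8.82, 7.73 and 7.76 CPM in the S226A livers. The groups did not overlap and the adjusted p was low, but the fold was short of the limit (log2 fold change -0.90, SE 0.20, edgeR adjusted p = 0.00137). P2ry13, whose level was highest in liver, gave 7.80, 10.6, 12.4 and 10.1 CPM against 5.73, 7.44, 5.82 and 6.10 CPM (log2 fold change -0.70, SE 0.21, edgeR adjusted p = 0.0229). P2ry13, Ly86 and Ctss were the 3 of the 9 genes without overlap below the wild-type livers, as were 5.18% of all genes.

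Mpeg1, by contrast, gave 131.9, 105.5, 120.7 and 128.0 CPM in the wild-type livers and 157.7, 168.8, 128.8 and 126.1 CPM in the S226A livers, a log2 fold change of 0.26 (95% interval -0.02 to 0.54). The effect of S226A on Mpeg1 differed between brain and liver by -1.55 on the log2 scale (SE 0.23, edgeR adjusted p = 1.11e-05), beside 0.704% of all genes called in that direction. With an adjusted p below 0.05 as the only criterion 4 of the 9 genes differed between these tissues, and 3.71% of all genes. Under the main criterion there were 2 without wild-type liver 2, S226A liver 3 or 4, wild-type brain 1 or S226A brain 2. Tmem119 had a log2 fold change of 0.43 (95% interval -0.04 to 0.90), P2ry12 of -0.32, Trem2 of -0.22 and Gpr34, with 0 to 11 reads per liver, of -0.27. None of these 4 was called, and the mutant was lower in 24 of 36 pairs of gene and litter. The summed level was 208.9 ± 29.8 CPM in S226A liver and 236.2 ± 16.2 CPM in wild-type liver, or 88.4%. Mpeg1, whose log2 fold change was above 0, made up 145.4 CPM of the sum in S226A liver and 121.5 CPM of that in wild-type liver.

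In the same livers 5 of 7 Kupffer cell genes were called lower, beside 0.847% of all genes, and all 10 neutrophil genes were called higher, beside 1.26% of all genes. The sum of the Kupffer cell genes was between 107.5 and 177.1 CPM in S226A liver and between 390.8 and 530.4 CPM in wild-type liver, and that of the neutrophil genes was between 9391 and 10096 CPM and between 3223 and 3876 CPM. Of the 10 other homeostatic genes 1 was called lower, Cx3cr1 (log2 fold change -1.60). Of the 16 shared macrophage genes 6 were called lower, among them Csf1r (-1.61), and 1 higher, Itgam (1.13). Of the 10 border-associated macrophage genes 3 were called lower, among them Mrc1 (-1.02), and 2 higher, F13a1 (1.25) and Clec12a (1.13). Of the 7 monocyte genes 4 were called higher. All 7 squamous epithelium genes had a log2 fold change below 0, with a median of -5.79, and 0 were called. With an adjusted p below 0.05 as the only criterion 6 passed, beside 11.7% of all genes in either direction. The share of these cells in the liver values of the 9 genes was not tested.

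In Y130A liver none of the 9 genes was called by edgeR or DESeq2, and none had an unadjusted p below 0.05 in edgeR, where 0.077% of all genes were called. The mutant was lower in 20 of 36 pairs of gene and litter, and the summed level was 97.3% of the wild-type level. Gpr34, with 0 to 27 reads per liver, had the most negative log2 fold change, -1.44 (95% interval -3.57 to 0.69), and the other 8 genes lay between -0.58 for Fcrls (95% interval -1.47 to 0.30) and 0.22 for P2ry12 (95% interval -0.39 to 0.82). The effects of the alleles in liver differed for Ctss (S226A minus Y130A -1.11, edgeR adjusted p = 0.00204), beside 0.823% of all genes called in that direction. With an adjusted p below 0.05 as the only criterion Ly86 passed too (-0.91, edgeR adjusted p = 0.0363), and 5.9% of all genes.

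**Figure D5:**
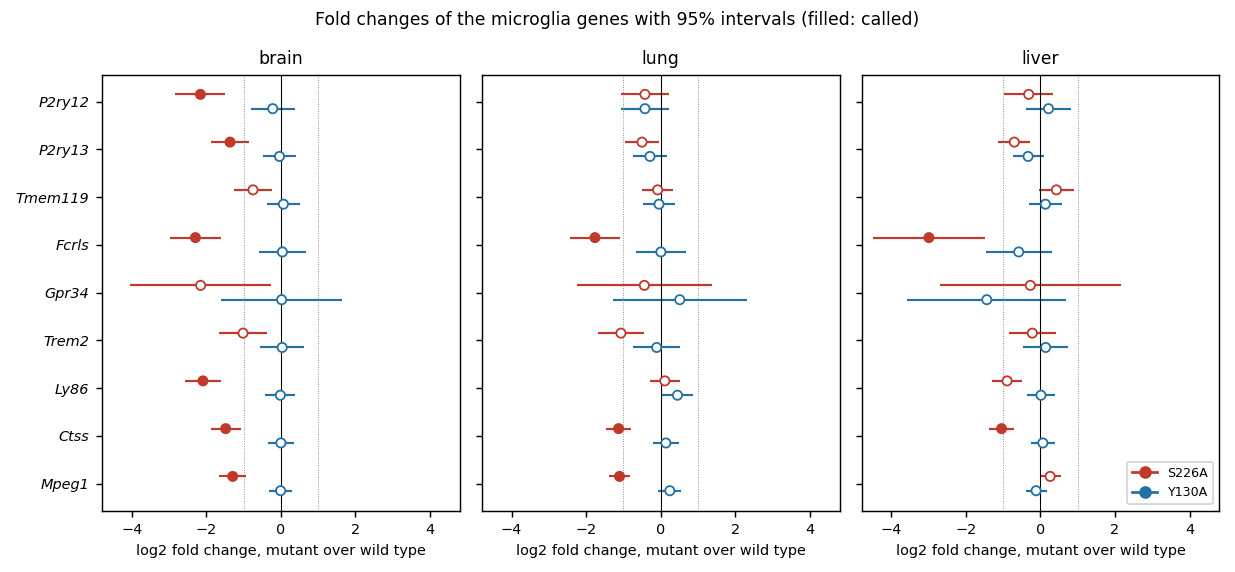
Log2 fold change of each mutant over its wild-type littermates, with 95% intervals, for the 9 genes in brain, lung and liver, filled where called, with dotted lines at the limits of -1 and 1. Ctss and Fcrls are called in S226A in all 3 tissues, and no gene is called in Y130A.

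Across the 3 tissues, Fcrls and Ctss were thus the genes called lower in S226A each time, and Mpeg1 was called in brain and lung. With the compared libraries fitted alone none of the lung calls was kept, and in liver Ctss was called while Fcrls did not pass the filter on low counts. Leaving out 1 library gave 0 to 2 calls in liver and 1 to 3 in lung. P2ry12, P2ry13 and Ly86 were called in brain and not in lung or liver, Ly86 in liver missing the limit on the fold as given above. Of these, Ly86 had an effect in brain that was called different from that in lung, a call lost with the compared libraries alone. Its difference of brain from liver was -1.20 (edgeR adjusted p = 0.0172) and that of P2ry13 was -0.66 (edgeR adjusted p = 0.330), neither of which passed the call. With the compared libraries alone the P2ry13 difference of brain from lung was -0.85 (edgeR adjusted p = 0.808), which was not called. The call of P2ry13 in brain was itself lost with the compared libraries alone and with the litter as replicate block. The difference of the P2ry12 effect of brain from that of lung was -1.74 on the log2 scale (edgeR adjusted p = 0.189) and from that of liver -1.84 (edgeR adjusted p = 0.0122), which did not pass the call. For Fcrls and Ctss the effect in brain did not pass the call against either tissue, with a 95% interval of the difference from lung of -1.47 to 0.41 for Fcrls and of -0.87 to 0.17 for Ctss.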

How the data were processed

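The authors trimmed reads with Trim Galore 0.6.5, checked them with FastQC 0.11.5, and aligned and counted them per gene with STAR 2.6.0b on GRCm38. The deposited counts are whole reads without normalization, and their strand setting is not given in the sources used here. The authors left out 1 wild-type lung, which was not analysed here. In their analysis of transposable elements they also name a possible outlier among the wild-type lungs of the S226A set, under a label that no library here carries. The nearest label is that of wild-type lung 4 of the S226A litters, which was kept here. The 9 genes and the companion lists were chosen with earlier results of these data known. Libraries were grouped by the labels. The 47 libraries were fitted with edgeR 4.0.16 in R 4.3.3 (12 coefficients, 35 residual degrees of freedom, TMM, minimum count 10, minimum total 15) without a litter term, and called as described above. The standard error is the log2 fold change over the square root of F. DESeq2 1.42.0 was an alternative, and the scripts were tested on simulated data. CPM use TMM-scaled totals. Permutation tests went through all splits of log2(CPM + 1), and SciPy 1.17.1 gave their Benjamini-Hochberg adjustment. Positions come from GENCODE M21, which matched 20445 of the 20456 identifiers. Brain, lung and liver came from the same 17 embryos, and the main fit had no embryo term for contrasts between tissues. Replicates within a group are separate embryos. Litter numbers pair them: 18 of 23 littermate pairs deviated together (r above 0.1, median 0.213), against 5 of 69 other pairs (median -0.061). No replicate within a group copied another (lowest chi-square per degree of freedom of 69 pairs 4.09). The named genes are the 9, the called genes of each list (at most 3) and the 5 most like the 9, of which 1 is not reported here, and other genes were named after their values were seen. Counts are of reads, not molecules, and the total per library sets the precision.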

Additional observations from a re-analysis of the deposited data

Results flagged for a closer look

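In 8 of 99 groups of 4 libraries, 1 library stood far from the other 3, where chance alone gives about 1 in 20. In brain these were Trem2 in S226A brain 3, at 0.711 CPM beside 0.909 to 0.937 CPM, and Mpeg1 in Y130A brain 2, at 7.84 CPM beside 6.32 to 6.45 CPM. In lung, Gpr34 reached 1.69 CPM in wild-type lung 1 of the S226A litters, beside 0.301 to 0.494 CPM, and Mpeg1 reached 40.8 CPM in S226A lung 1, beside 33.0 to 34.0 CPM. In liver, Gpr34 stood at 0.674 CPM in wild-type liver 4 of the S226A litters and at 0.939 CPM in wild-type liver 3 of the Y130A litters, where no other library of the group passed 0.106 CPM. Tmem119 stood at 8.12 CPM in Y130A liver 1, beside 5.56 to 5.67 CPM, and Ctss at 77.4 CPM in Y130A liver 3, beside 93.7 to 96.8 CPM.

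Effects that differed between groups, by the interaction in edgeR, were those of Ly86 (-2.08), Ctss (-1.48) and Mpeg1 (-1.28) between S226A and Y130A brain, of Ctss (-1.27) and Mpeg1 (-1.35) in lung, and of Ctss (-1.11) in liver, each as the difference of log2 fold changes, S226A minus Y130A. Within S226A, the effect on Ly86 differed between brain and lung (-2.20) and that on Mpeg1 between brain and liver (-1.55). The calls of Ctss and Mpeg1 in lung and of Ly86 between brain and lung were lost with the compared libraries fitted alone.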

How the results depend on the processing

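The 6 genes called in S226A brain were 6 with DESeq2, with RLE size factors, without the filter and against both wild-type sets, and 5 with the litter as replicate block or with the compared libraries alone, where P2ry13 was lost (edgeR adjusted p = 0.0178 and 0.0983). P2ry13 was also lost without wild-type brain 2, 3 or 4 or S226A brain 1 or 4. The block changed no other call of the 9 genes. With the compared libraries alone the calls became 0 in S226A lung, 1 in S226A liver, 0 for the lung interaction and 0 for brain against lung. DESeq2 gave 5 for the brain interaction and 3 for brain against liver, which gave 2 with the embryo as replicate block. With an adjusted p below 0.05 as the only criterion there were 4 in S226A liver, 2 for the liver interaction, 4 for brain against liver and 7 for wild-type brain against lung. Leaving out 1 library gave 0 to 2 calls in S226A liver, 1 to 3 in S226A lung, 1 to 3 for the brain interaction, 1 to 2 for the lung interaction and 1 to 2 for brain against liver.

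Signs that turned belonged to log2 fold changes that were not called, among them that of Gpr34 in Y130A liver, -1.44 with all libraries. In Y130A brain, Ctss gave 0.0097 with DESeq2, 0.0099 with RLE size factors, 0.0041 without the filter, 0.0017 with the compared libraries alone and 0.0032 with the litter as replicate block, Mpeg1 0.0023 with DESeq2 and 0.0022 with RLE, and Gpr34 -0.022 with the block. In Y130A lung the block gave 0.012 for Tmem119 and 0.108 for Trem2. Gpr34 in S226A liver gave 0.059 with the block and 0.070 as a mean difference of log2(CPM + 0.1). Leaving out 1 library gave, in Y130A brain, -0.095 to 0.067 for Ctss, -0.038 to 0.085 for Fcrls, -0.123 to 0.159 for Gpr34, -0.125 to 0.112 for Ly86, -0.088 to 0.0605 for Mpeg1, -0.078 to 0.011 for P2ry13, -0.025 to 0.166 for Tmem119 and -0.063 to 0.105 for Trem2. In Y130A lung it gave -0.0093 to 0.225 for Ctss, -0.073 to 0.083 for Fcrls, -0.126 to 0.018 for Tmem119 and -0.382 to 0.125 for Trem2. In Y130A liver it gave -1.84 to 0.692 for Gpr34, -0.070 to 0.093 for Ly86, -0.022 to 0.266 for Tmem119 and -0.126 to 0.259 for Trem2. In S226A it gave, for Gpr34, -1.78 to 0.464 in lung and -1.04 to 2.64 in liver, for Ly86 -0.121 to 0.224 in lung, and for P2ry12 -0.475 to 0.134 in liver. The cause of these changes was not tested.

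Few reads limit what can be said of Gpr34, with 0 to 13 reads in the S226A brains, and of Fcrls in liver.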
